A study of Mus musculus with 3 samples.

Results

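The miR-23, miR-24 and miR-27 microRNAs were examined in a qRT-PCR screen of mouse cells. They were chosen by name as the non-star mouse assays mmu-miR-23a, mmu-miR-23b, mmu-miR-24, mmu-miR-27a and mmu-miR-27b (written below without the species prefix), which are 5 of the 709 microRNA assays of the screen, and all 5 were measured in every PCR well. The screen compared 1 sample each of neural stem cells (NSCs) derived from mouse fetal forebrain, mouse embryonic stem cells (ESCs) and mouse embryonic fibroblasts (MEFs), to find microRNAs that are high in NSCs. The labels name no strain, age, allele or treatment for the 3 samples, and equal amounts of RNA were pooled before the measurement, so each sample is a pool. NSCs were grown with basic fibroblast growth factor and platelet-derived growth factor-AA on a coated surface, and the sources used here do not say whether the ESCs were grown on feeder cells. Every sample had 2 PCR runs, which repeat the PCR only, so no test between cell types was possible.

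A microRNA is a short RNA that pairs through its seed, bases 2 to 8, with messenger RNAs and lowers their translation or stability. It is cut from a hairpin as 1 arm of a duplex, the guide strand, while the opposite arm, the partner or star strand, is mostly degraded. miR-23, miR-27 and miR-24 hairpins lie side by side and are transcribed together, from a pair of gene clusters that arose by duplication. The microRNAs are widely expressed and are known from studies of fibroblasts, endothelium, muscle, fat and blood cells, with miR-23 also studied in astrocytes and neurons.

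The mature guide sequences are shown because the assays differ by few bases and because the seeds define which messengers can be paired. They are from RefSeq on the GRCm38.p6 build, 5′ to 3′ with the seed in capitals. A mature sequence was matched for 4 of the 5 members, and miR-23b is named only.
miR-23a: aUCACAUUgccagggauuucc
miR-27a: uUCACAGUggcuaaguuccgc
miR-27b: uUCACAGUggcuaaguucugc
miR-24: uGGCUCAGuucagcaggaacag
miR-23a lies at chr8:84208563-84208583, miR-27a at chr8:84208727-84208747 and 1 copy of miR-24 at chr8:84208875-84208896, all on the plus strand. The 3 hairpins of this cluster, in the order Mir23a, Mir27a and Mir24-2, span 404 bases and overlap no other RefSeq gene. miR-27b lies at chr13:63300760-63300780 and the other copy of miR-24 at chr13:63301251-63301272, also on the plus strand. The hairpins Mir23b, Mir27b and Mir24-1 span 792 bases there, inside the protein-coding gene Aopep. The mature miR-24 is the same from both clusters, so its assay cannot tell them apart. miR-27a and miR-27b share their seed and differ at 1 of 21 positions, C19U, counted from the 5′ end of miR-27a. The sources used here do not give how far such near-identical assays amplify each other's target, so the values of miR-23a and miR-23b, and of miR-27a and miR-27b, may not be separate. Guide sequences of another 4 microRNAs hold the miR-24 seed at bases 2 to 8, but none of these is an assay of the screen. Of the assays, only miR-128, a brain microRNA, holds the miR-27 seed, at its bases 1 to 7.

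Each well gave a threshold cycle, or Ct, and every cycle earlier corresponds to roughly a 2-fold higher amount of RNA. The runs of a sample were averaged, and the average of 3 small reference RNAs of that plate (U6, RNU43 and U1) was subtracted to give delta Ct, in which a lower number is a higher level. Subtracting the delta Ct of 1 sample from that of another gives the log2 fold, and the ± value is its PCR error, made from the SD between runs of both samples. It holds no spread between cultures and no error of the reference RNAs, and each SD comes from 2 runs. Calls of higher or lower required a 4-fold difference, runs without overlap, and an average Ct no later than 32 where the level was higher. Of the 709 microRNAs, 686 were measured in NSCs, 680 in ESCs and 700 in MEFs. The cell type labels were checked on marker lists. All 6 neural markers had a Ct no later than 32 in NSCs, and miR-153, miR-219 and both strands of miR-9, 4 of the 6, were called higher there than in ESCs and than in MEFs. Of 12 pluripotent microRNAs, 11 were higher in ESCs than in NSCs and 11 than in MEFs, with miR-302b, miR-295, miR-294 and miR-293 at the largest differences from NSCs. Of 13 measured fibroblast and mesenchymal microRNAs, 12 were lower in NSCs than in MEFs, but 12 were also lower in NSCs than in ESCs, and only 1, miR-199a-5p, was called between ESCs and MEFs. The median log2 fold of this list was -0.999 for ESCs over MEFs, and every measured member other than miR-31 was below 0 there. However, the median of all microRNAs on the same plate was -0.25, and miR-10a, miR-10b, miR-152 and miR-222 lay close to it. With miR-16 as the reference that median was 1.59, so the signs depend on the reference. In the ESC sample 12 of the 13 were thus at a level called higher than in NSCs. Of all 678 microRNAs measured in both samples, 14.9% were called in that direction. In NSCs 8 of the listed microRNAs also had a Ct no later than 32. Whether the ESC sample held fibroblasts was not tested.

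In the deposited wells all 5 microRNAs were present in all 3 samples and lowest in NSCs. The miR-23a assay gave Ct values of 24.21 and 24.20 for NSCs, 23.02 and 23.01 in ESCs, and 21.35 and 21.41 in MEFs. For miR-23b the Ct was 24.33 and 24.27 in NSCs, 23.07 and 23.00 in ESCs, and 21.40 and 21.46 in MEFs. Runs of different cell types did not overlap for either assay, and both were among the earliest of the screen in ESCs, where they ranked 15 and 17 by Ct of 680, against 44 and 48 of 686 in NSCs. miR-27a was at 26.49 and 26.65 in NSCs, 25.10 and 25.08 in ESCs, and 22.85 and 23.41 in MEFs. miR-27b was at 27.00 in both NSC runs, 25.10 and 24.99 in ESCs, and 23.34 and 23.28 in MEFs. For miR-27a the MEF runs were 0.561 cycles apart, the widest gap among the members, whereas the other gaps were at most 0.195 cycles. miR-24 was the latest of the members, at 28.64 and 28.44 in NSCs, 27.29 and 27.39 in ESCs, and 26.22 and 26.14 in MEFs. Ct values of different assays depend on their primers, so these ranks order the assays and not the amounts of RNA.

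**Figure D1:**
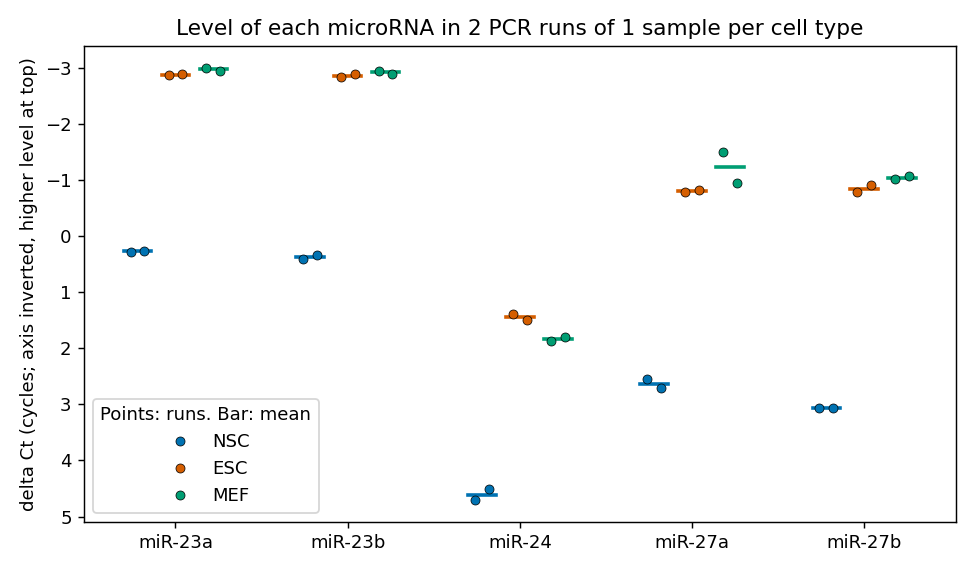
Delta Ct in cycles, on an inverted axis, of miR-23a, miR-23b, miR-24, miR-27a and miR-27b, with 1 point for each of 2 PCR runs and a bar at their mean for NSCs, ESCs and MEFs. NSCs lie below both other samples for every assay, for example at a delta Ct of 0.27 for miR-23a against -2.88 in ESCs and -2.97 in MEFs, and the ESC and MEF points lie close together.

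After the reference was subtracted, the delta Ct of miR-23a was 0.27 in NSCs, -2.88 in ESCs and -2.97 in MEFs, and that of miR-23b was 0.37, -2.86 and -2.92. The delta Ct of miR-27a was 2.64 in NSCs, -0.80 in ESCs and -1.22 in MEFs, and that of miR-27b was 3.07, -0.84 and -1.04. For these 4 assays the order of the levels was therefore MEFs, ESCs, NSCs. For miR-24 the delta Ct was 4.61 in NSCs, 1.44 in ESCs and 1.83 in MEFs, so that ESCs came first. In the deposited wells ESCs and MEFs were neighbours in each order and stood within 1 cycle of each other, while NSCs stood apart from both.

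In NSCs all 5 microRNAs were lower than in ESCs, at a median log2 fold of -3.23, or 9.39-fold lower. The background of this call is that 14.9% of the 678 microRNAs measured in both samples were lower in NSCs and 2.95% were higher, and the median log2 fold of all of them was -0.42. miR-27b differed most, at -3.91 ± 0.06 (15.1-fold lower), followed by miR-27a at -3.44 ± 0.08 (10.9-fold lower). The other members lay close together, miR-23b at -3.23 ± 0.04, miR-24 at -3.16 ± 0.11 and miR-23a at -3.15 ± 0.01, and did not differ from each other by more than 2 times the PCR error. From the lowest log2 fold upward, the members ranked 76 to 99 of 678. The difference has a pair of parts. Before any reference, the Ct of the members was 1.19 to 1.95 cycles later in NSCs than in ESCs, and the reference RNAs, which were 1.96 cycles earlier in NSCs, add the rest. The choice of reference moved the size, from a median of -2.26 with RNU43 alone to -5.86 with miR-16. All 5 were called lower with each reference tried. With miR-16, however, the median of all microRNAs was -2.96, itself beyond 4-fold. miR-16 was called higher in NSCs than in ESCs, at a log2 fold of 2.63. The share of all microRNAs called was not computed with the other references. The delta Ct that the authors deposited was not used for ESCs on this plate, because 6.90 cycles more than the reference had been subtracted in that column, and it would give a median of -10.13.

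Against MEFs, all 5 microRNAs were lower in NSCs as well, at a median log2 fold of -3.29, or 9.79-fold lower, whereas 13.9% of 685 microRNAs were lower in NSCs, 1.75% were higher and the median of all was -0.48. miR-27b was again at the lowest log2 fold, -4.11 ± 0.03 (17.2-fold lower), and miR-27a was at -3.86 ± 0.29 (14.5-fold lower). miR-23b was at -3.29 ± 0.04 and miR-23a at -3.24 ± 0.03. miR-24 had the smallest difference, -2.77 ± 0.10 (6.84-fold lower), and it was below 4-fold with RNU43 alone (-1.58) and with the mean of the microRNAs (-1.96) as the reference, which left 4 members called. The Ct itself was 2.36 to 3.69 cycles later in NSCs than in MEFs, and the reference added 0.41 cycles. The MEF values of these assays are open to doubt. The study's supplementary table holds the same NSC and ESC wells for every member but different MEF wells. With that table's MEF wells and its own MEF reference value, no member is called between NSCs and MEFs, and every member is called higher in ESCs than in MEFs. How far the wells and the reference value each changed the calls was not tested. Which set of MEF wells is right was not settled from the sources used here. MEF wells of the other assays, among them the markers and the partner strands, were not compared between these sources. The comparison with ESCs does not use these wells. Since both comparisons share the NSC sample, they are not independent of each other.

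**Figure D2:**
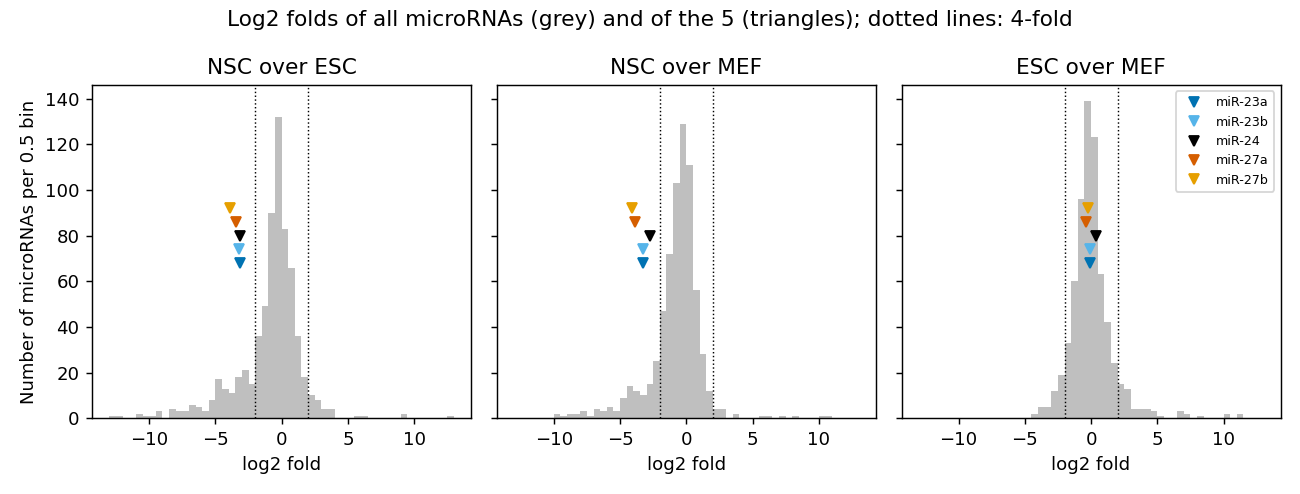
Histograms of the log2 folds of all measured microRNAs in bins of 0.5 for NSCs over ESCs, NSCs over MEFs and ESCs over MEFs, with a triangle for each of the 5 microRNAs (placed by its log2 fold, its height carrying no value) and dotted lines at 4-fold. The triangles lie between -3.91 and -3.15 for NSCs over ESCs and between -4.11 and -2.77 for NSCs over MEFs, left of the dotted line, and between -0.42 and 0.39 for ESCs over MEFs, in the middle of all microRNAs.

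Between ESCs and MEFs none of the 5 microRNAs was called with the deposited wells, while 5.3% of 679 microRNAs were higher in ESCs and 3.24% were lower. With the MEF wells and MEF reference value of the study's supplementary table, all 5 were called higher in ESCs. The values below are from the deposited wells. The log2 folds for ESCs over MEFs were -0.093 ± 0.03 for miR-23a, -0.059 ± 0.04 for miR-23b, -0.19 ± 0.06 for miR-27b, -0.42 ± 0.28 for miR-27a and 0.39 ± 0.06 for miR-24. Those of miR-23b and miR-27a were within 2 times the PCR error of 0. The signs of miR-23a, miR-23b and miR-27b depend on the reference, and that of miR-27a turned with miR-16 alone, to 1.43, while miR-24 was above 0 with each. The median of the members was -0.093 with the mean of the 3 reference RNAs, 0.023 with U6 alone, 0.13 with RNU43 alone and -0.43 with U1 alone. With miR-16 it was 1.75, and miR-24 alone was called, at 2.24, but the median of all microRNAs also rose to 1.60 with this reference.

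The reference cancels when assays of 1 plate are compared with each other, and all 5 members were on plate 1. Relative to the median log2 fold of the 355 plate 1 microRNAs measured in both samples, -0.46, the members lay between -3.45 and -2.69 on the log2 scale for NSCs over ESCs. For NSCs over MEFs the plate 1 median was -0.64 and the members lay between -3.46 and -2.13 relative to it. The members' median relative to the plate, -2.77 and -2.65, is the same with U6, RNU43, U1, the mean of the microRNAs or miR-16 as the reference. The references themselves did not shift alike on plate 1. The delay of ESCs against NSCs was 2.59 cycles for U6, 2.31 for U1 and 0.988 for RNU43, of which 1 ESC well was measured.

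**Figure D3:**
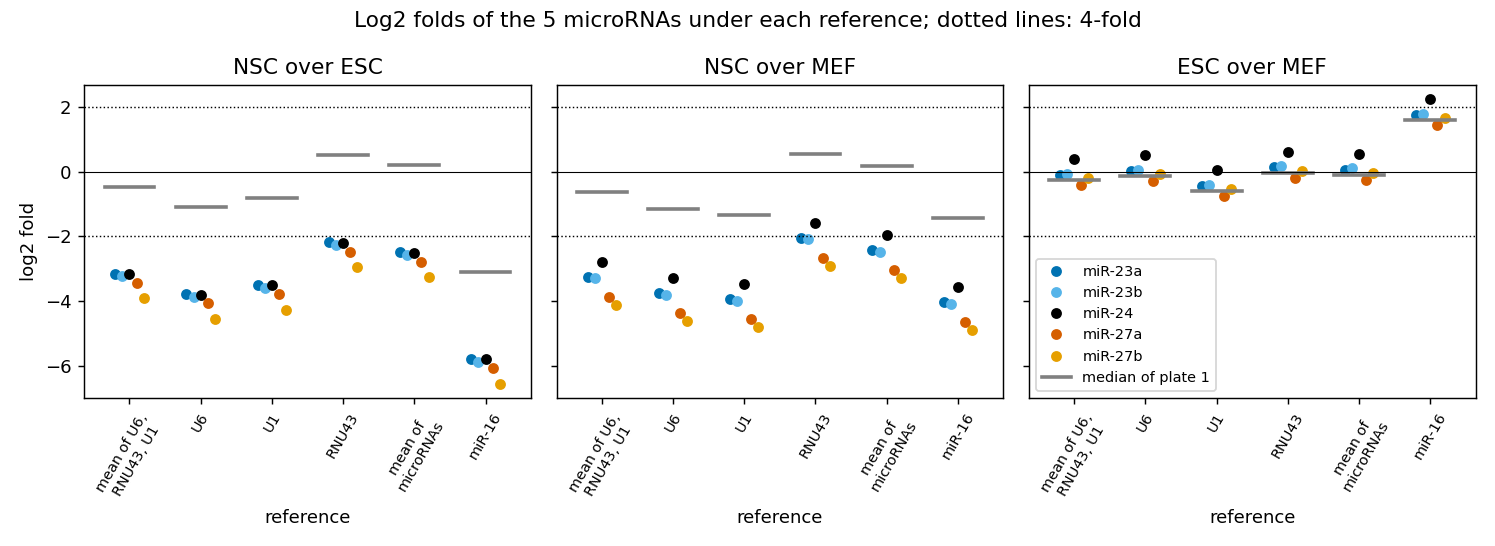
Log2 folds of the 5 microRNAs (points) and the median of all plate 1 microRNAs (grey bars) with the mean of U6, RNU43 and U1 and with each of 5 other references, for the 3 comparisons, with dotted lines at 4-fold. The points and the grey bar move together, and the median of the members relative to the grey bar stays at -2.77 for NSCs over ESCs, -2.65 for NSCs over MEFs and 0.16 for ESCs over MEFs.

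The members also differed among themselves. miR-23a and miR-23b, the paralogues of the chromosome 8 and chromosome 13 clusters, had Ct values within 0.101 cycles of each other in every sample, and their log2 folds differed by 0.082 ± 0.05 for NSCs over ESCs, 0.048 ± 0.05 for NSCs over MEFs and -0.034 ± 0.05 for ESCs over MEFs. They were thus not separated beyond 2 times the PCR error in any comparison. miR-27a and miR-27b were less alike. In ESCs the Ct of miR-27a minus that of miR-27b was 0.042 ± 0.06, within the PCR error. In NSCs miR-27a was 0.43 ± 0.08 cycles earlier, so that the log2 fold of NSCs over ESCs was 0.47 ± 0.10 higher for miR-27a than for miR-27b. Over MEFs their log2 folds differed by 0.25 ± 0.29, with the wide gap between the MEF runs of miR-27a as the main part of that error. Within the chromosome 8 cluster, miR-27a was 0.29 ± 0.08 below miR-23a for NSCs over ESCs. Within the chromosome 13 cluster, miR-27b was 0.68 ± 0.07 below miR-23b for NSCs over ESCs and 0.82 ± 0.05 below it for NSCs over MEFs. The gap between miR-27b and miR-23b was 2.69 ± 0.03 cycles in NSCs, 2.01 ± 0.06 in ESCs and 1.88 ± 0.04 in MEFs. The Ct gap between these assays of 1 cluster, whose RNAs share a transcript, was thus wider in NSCs than in both other samples. Whether the amounts of RNA kept 1 ratio was not settled, because the paralogue assays may amplify each other's target. Each cell type also has 1 sample only. miR-24 kept close to miR-23a for NSCs over ESCs, where their log2 folds differed by 0.014 ± 0.11, but was 0.47 ± 0.11 above it for NSCs over MEFs.

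The partner strands are reported for each cluster, because they differ more between the clusters than the guides do: miR-27a* and miR-27b* differ at 8 of 22 positions, and the copies of the miR-24 hairpin give different partner strands. Of the 6 partner strands listed, 4 were assays of the screen, on plate 2. They are shown as RefSeq 5p arms on the GRCm38.p6 build, 5′ to 3′ with bases 2 to 8 in capitals.
miR-27a*: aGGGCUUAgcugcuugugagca
miR-27b*: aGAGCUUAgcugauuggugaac
miR-24-2*: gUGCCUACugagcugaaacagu
miR-24-1*: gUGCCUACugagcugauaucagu
miR-27a* (chr8:84208685-84208706) and miR-24-2* (chr8:84208839-84208860) come from the chromosome 8 cluster, and miR-27b* (chr13:63300718-63300739) and miR-24-1* (chr13:63301213-63301235) from that on chromosome 13.

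All 4 partner strands were later than their guides. The Ct of miR-27a* was 31.49 and 31.67 in NSCs, 30.29 and 30.07 in ESCs, and 29.80 and 29.63 in MEFs. That of miR-27b* was 31.72 and 31.50 in NSCs, 32.17 and 31.81 in ESCs, and 29.40 and 29.29 in MEFs. miR-27a* was called lower in NSCs than in ESCs, at a log2 fold of -3.49 ± 0.14, and than in MEFs, at -2.19 ± 0.12. miR-27b* was called lower in NSCs than in MEFs, at -2.59 ± 0.12, but not than in ESCs, where it was at -1.71 ± 0.21. These calls hold for the mean of the 3 reference RNAs and can change with another reference. On plate 2 the delay of ESCs against NSCs was 2.56 cycles for U6, 2.60 for U1 and 1.11 for RNU43, against 2.09 for their mean. Calls of the partner strands with other references were not made. The difference between these strands does not depend on the reference. The log2 fold of miR-27a* minus that of miR-27b* was -1.78 ± 0.26 for NSCs over ESCs, 2.18 ± 0.23 for ESCs over MEFs and 0.40 ± 0.17 for NSCs over MEFs. The ESC sample thus held more miR-27a* relative to miR-27b* than both other samples did, while the guides miR-27a and miR-27b differed by -0.22 ± 0.29 for ESCs over MEFs.

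**Figure D4:**
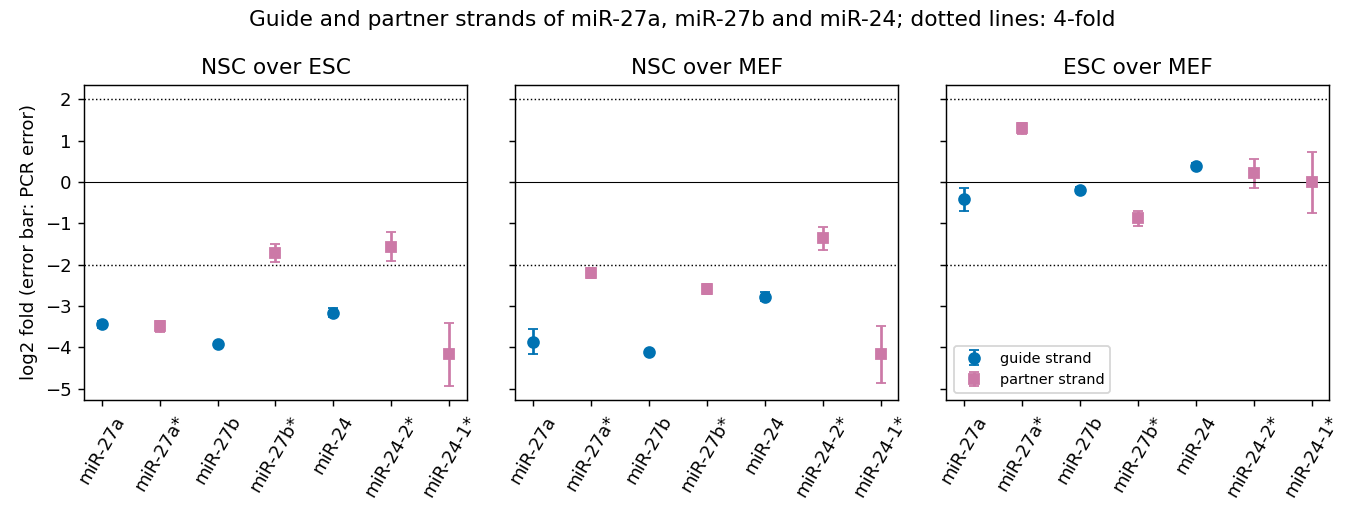
Log2 folds of the guide strands (circles) and partner strands (squares) of miR-27a, miR-27b and miR-24 for the 3 comparisons, with bars for the PCR error and dotted lines at 4-fold. For NSCs over ESCs miR-27a* lies at -3.49, next to its guide at -3.44, whereas miR-27b* lies at -1.71 and its guide at -3.91.

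The partner strands of miR-24 were not called. miR-24-2* had a Ct of 32.79 and 32.41 in NSCs, 32.82 and 33.42 in ESCs, and 31.36 and 31.76 in MEFs, and log2 folds of -1.56 ± 0.36 for NSCs over ESCs and -1.36 ± 0.28 for NSCs over MEFs. miR-24-1* was detected late, at 39.14 and 38.12 in NSCs, 37.11 and 35.99 in ESCs, and 34.31 and 35.26 in MEFs. Its log2 folds of -4.17 ± 0.76 over ESCs and -4.17 ± 0.70 over MEFs were large, but its Ct was later than 32 in every sample, so that it could not be called. The gap in delta Ct between partner and guide was 4.88 ± 0.12 in NSCs, 4.83 ± 0.11 in ESCs and 6.54 ± 0.29 in MEFs for the miR-27a hairpin, and 4.48 ± 0.11, 6.68 ± 0.19 and 5.99 ± 0.06 for the miR-27b hairpin. These gaps span 2 plates and use the reference of each, whose error the ± value leaves out.

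miR-128, which holds the seed of miR-27 shifted by 1 base, did not follow the members. It is shown in RefSeq form, 5′ to 3′, with its own bases 2 to 8 in capitals.
miR-128: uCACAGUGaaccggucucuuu
The same mature sequence is encoded at chr1:128202404-128202424 on the plus strand and chr9:112118644-112118664 on the minus strand. Its Ct was 31.54 and 32.06 in NSCs, 33.78 and 34.55 in ESCs, and 32.73 and 32.62 in MEFs. Its log2 fold was 0.41 ± 0.47 for NSCs over ESCs and 0.46 ± 0.27 for NSCs over MEFs, within 2 times the PCR error in both. The average Ct of miR-128 was 34.17 in ESCs and 32.67 in MEFs, later than the limit of 32. A lower level in NSCs could therefore not have been called for this assay.

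The microRNAs most like the members were found from the delta Ct of each microRNA centred over the 3 samples, by the Euclidean distance to the mean of the members. Among 315 other microRNAs with both runs measured and an average Ct no later than 32 in every sample, miR-152 was the nearest, at a distance of 0.204 cycles. miR-434-3p (0.292), miR-221 (0.371), miR-409-3p (0.385) and miR-540-3p (0.416) followed. All of these lay within the range of the members themselves, which was 0.127 to 0.492. The members are part of the mean to which the distance is taken. With 3 points per microRNA this likeness is a description. miR-152 and miR-221 belong to the fibroblast and mesenchymal list, and miR-434-3p, miR-409-3p and miR-540-3p are encoded in the imprinted Dlk1-Dio3 region. For miR-152 the log2 fold was -3.49 ± 0.10 for NSCs over ESCs and -3.74 ± 0.10 for NSCs over MEFs, and for miR-221 it was -2.93 ± 0.08 and -2.995 ± 0.12.

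In the deposited wells the members were lower in NSCs than in both other samples. So were the medians of the fibroblast and mesenchymal list and of the blood and endothelial list. With the MEF wells and MEF reference value of the study's supplementary table, no member was called between NSCs and MEFs. The difference of the members from MEFs is therefore not settled. For ESCs over MEFs the blood and endothelial list had a median log2 fold of 0.69, against -0.093 for the members. The pluripotent list was also lower in NSCs than in ESCs, at a median of -8.77 with 11 of 12 called. It differed from the members in the other comparisons. Of the 12 pluripotent microRNAs none was called between NSCs and MEFs, at a median log2 fold of -0.71, and 11 were higher in ESCs than in MEFs, at a median of 7.77. The fibroblast and mesenchymal list had a median log2 fold of -5.25 for NSCs over ESCs, -5.53 for NSCs over MEFs and -0.999 for ESCs over MEFs. The called members furthest from MEFs were miR-199a-3p, a mesenchymal microRNA (-8.29 ± 0.69 over ESCs and -9.50 ± 0.69 over MEFs), miR-196a of the Hox clusters (-7.86 ± 0.59 and -8.86 ± 0.56), miR-199a-5p (-5.79 ± 0.32 and -8.28 ± 0.32) and miR-145 of smooth muscle (-6.60 ± 0.10 and -7.66 ± 0.09). The summed level of the list, as log2 relative to the reference RNAs, was 0.35 in NSCs, 3.18 in ESCs and 4.74 in MEFs, where it also holds miR-22, which had no value in both other samples. Of the 8 blood and endothelial microRNAs 7 were measured, 4 were lower in NSCs than in ESCs and 3 were lower than in MEFs, and the summed level was -6.46 in NSCs, -2.46 in ESCs and -2.80 in MEFs. The part of fibroblasts, blood or endothelial cells in the ESC and MEF levels of the members was not tested. In a sample of many cells, fewer cells of a type and less of the RNA per cell cannot be told apart.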

How the data were processed

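Small RNAs of the 3 samples were tailed with poly-A, reverse transcribed and amplified with SYBR Green in a mouse profiler set based on miRBase version 14. Deposited by the authors were the Ct values of all wells and, in a second kind of table, a delta Ct per sample. The sources used here do not state the threshold behind the Ct. The authors' tables of fold changes and p-values were not used. Delta Ct was recomputed from the well values, averaging each reference RNA over its runs first, because the deposited ESC column of plate 1 carries a constant offset. In all other columns it equals the value computed here. No p-value is given, since each cell type has 1 sample. MicroRNAs with no value in a sample were left out of its comparisons. The members, marker lists and naming rule were chosen with earlier results of these data known. Named were the members, their partner strands, assays sharing a seed, the 5 most alike microRNAs and up to 4 called members of each marker list. Sequences were read from RefSeq tables. The computation was tested on simulated Ct values. Alternatives were other references, each run alone, 1.9-fold amplification, other folds for a call, other Ct limits and the authors' delta Ct. Python 3.11.15 with pandas 2.3.3, numpy 2.4.6 and matplotlib 3.10.9 was used.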

Additional observations from a re-analysis of the deposited data

How the results depend on the processing

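With the deposited MEF wells, all 5 microRNAs kept log2 folds below 0 for NSCs over ESCs and for NSCs over MEFs. This held under every reference, run, amplification and deposited value tried. The median for NSCs over ESCs was -3.86 with U6 alone, -3.58 with U1 alone, -2.26 with RNU43 alone, -2.58 with the mean of microRNAs at a Ct of at most 32, -5.86 with miR-16, -2.99 with 1.9-fold amplification per cycle and -10.13 with the delta Ct of the authors' table. For NSCs over MEFs it was -3.80, -3.98, -2.09, -2.48, -4.07 and -3.05 in the same order, without the authors' table, which left it as it was. For ESCs over MEFs it was 0.023 with U6 alone, -0.43 with U1 alone, 0.13 with RNU43 alone, 0.063 with the mean of microRNAs, 1.75 with miR-16 and 6.80 with the authors' delta Ct. The last gave 5 called microRNAs and miR-16 gave 1, against 0. A check with the MEF wells and the MEF reference value of the study's supplementary table was added after the data were seen. In it, none of the 5 was called between NSCs and MEFs and all 5 were called higher in ESCs than in MEFs. The shift with the authors' delta Ct follows from the offset of 6.90 cycles in its ESC column. A reference moves all assays of a plate alike. With 8-fold for a call, 5 were called lower in NSCs than in ESCs and 4 than in MEFs. Each run alone changed no call of the members. No paired analysis was possible because each cell type has 1 sample. With 1 sample per cell type, the spread between cultures is unknown, and the PCR error does not contain it.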
